A study of Mus musculus with 10 samples.

Results

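A set of 30 genes of cholesterol and fatty acid synthesis was followed in 10 mouse gastric tumours. They were chosen by name as the regulators and enzymes of both pathways, and all 30 were found among the 56748 genes of the deposited table. Inflamed tumours (5) carried the genotype Tff1-CreERT2;Apcfl/fl;Trp53fl/fl, in which a tamoxifen-inducible Cre recombinase under the gastric gene Tff1 acts on floxed Apc and Trp53. Desert tumours (5) were orthotopic allografts, tumour cells placed into the stomach of a host, with Wild type given as genotype. What the grafted cells carry, whether they are 1 line or clone, and the age of the animals are not stated in the labels. The tumour type, genotype and the way of making the tumour cannot be told apart. Each library was labelled as 1 tumour, though a protocol in the labels speaks of fewer tumours than 10 and does not say which. The labels do not say whether the tumours of a group came from separate cultures or animals, so the p-values measure the spread between these samples. RNA was measured by bulk sequencing, in which fewer cells of a type and less RNA per cell cannot be told apart.

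Cells build cholesterol from acetyl-CoA through mevalonate, isoprenoids and squalene to sterols, and they build fatty acids from the same acetyl-CoA through malonyl-CoA. SREBP proteins, made from Srebf1 and Srebf2, are held in the endoplasmic reticulum by Scap and the Insig proteins when sterols are plentiful, and are cut free to act on target genes when sterols run low. SREBP-2 is known mainly for cholesterol genes and SREBP-1c for fatty acid genes. Desaturases and elongases then set how long and how unsaturated the fatty acids of membranes are.

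The promoters of these genes are known for sterol regulatory elements, which bind SREBP, beside CCAAT boxes, which bind NF-Y. RefSeq promoter windows (GRCm38.p6, 250 bases before to 50 after a start site) were found for 23 of the 30 genes. The sequences of Hmgcs1 and Insig1 are shown because their RNA was higher in inflamed tumours, and that of Fasn because its RNA was lower. Each runs from 200 bases to 1 base before the start site, with CCAAT and the sterol element CACNCCAC, on either strand, in capitals.
Hmgcs1: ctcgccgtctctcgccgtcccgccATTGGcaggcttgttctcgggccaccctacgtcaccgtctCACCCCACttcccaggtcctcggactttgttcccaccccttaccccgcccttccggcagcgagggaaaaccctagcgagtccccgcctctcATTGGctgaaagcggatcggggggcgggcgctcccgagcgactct
Insig1: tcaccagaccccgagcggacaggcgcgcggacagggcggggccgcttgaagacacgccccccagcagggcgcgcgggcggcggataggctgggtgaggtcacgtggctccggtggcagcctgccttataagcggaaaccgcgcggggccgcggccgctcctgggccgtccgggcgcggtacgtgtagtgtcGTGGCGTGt
Fasn: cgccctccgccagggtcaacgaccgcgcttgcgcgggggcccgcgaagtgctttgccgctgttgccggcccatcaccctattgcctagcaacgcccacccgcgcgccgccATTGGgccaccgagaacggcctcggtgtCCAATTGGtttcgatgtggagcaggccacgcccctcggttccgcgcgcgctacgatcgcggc
The stretch of Hmgcs1 lies at chr13:119690151-119690350 on the plus strand, that of Insig1 at chr5:28071212-28071411 on the plus strand and that of Fasn at chr11:120824548-120824747 on the minus strand. The sterol element TCACNCCAC was found in 1 of 23 genes, Hmgcs1, and in 1.24% of the 32851 windows of the same length. Its shorter form CACNCCAC, which the longer one contains, was chosen after the longer one had been searched. This form was found in 2 of 23 genes, Hmgcs1 and Insig1 (2 of 30 windows, 6.67%), near the 6.24% of all windows. Neither form stood in the windows of Cyp51, Me1 or Lss, which were also higher in inflamed tumours, or of Fasn. CCAAT stood in 19 of 23 genes (20 of their 30 windows), against 37.4% of all windows. The GC box GGGCGG stood in 18 of 23 genes (21 of 30 windows), against 35.7% of all windows. The motifs were searched on both strands, and a match is a description of letters only. Some genes had more than 1 window, so windows and genes are counted apart. CCAAT was present in the windows of genes that were higher (Hmgcs1, Cyp51, Me1) and of genes that were lower in inflamed tumours (Fasn, Srebf1, Dhcr7).

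Libraries held 14148147 to 16951640 reads in genes, recovered from the steps of the deposited FPKM (fragments scaled to gene length and to a total per library). Depth overlapped between the groups. Mitochondrial genes took 2.02 to 3.7% of reads in inflamed and 1.38 to 1.76% in desert tumours. Of 10 gastric epithelial markers, 8 rose in inflamed tumours and 0 fell, against 31.0% higher and 31.2% lower among all tested genes. Their summed level was 9948 to 44295 FPKM in inflamed against 28.6 to 59.1 FPKM in desert tumours. Gastric identity thus showed in the RNA of inflamed tumours, whereas the defining markers Tff2, Gkn1 and Gkn2 were at no more than 3.88 FPKM in any desert tumour. The other gastric markers of the list held most of the sum in desert tumours, and 2 of the 10 were not called. General epithelial markers (7 genes) summed to 3406 to 6381 and 1566 to 2252 FPKM.

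On the deposited FPKM, the cholesterol enzymes among the 30 genes were mostly higher in inflamed tumours. Their enzymes of fatty acid synthesis and desaturation were mostly higher in desert tumours. Of 14 enzymes of the mevalonate and sterol arms, 8 rose in inflamed tumours, 2 fell and 4 were not called, with a median log2 difference of 0.62 (inflamed minus desert). Of 11 enzymes that supply precursors or make, lengthen or desaturate fatty acids, 2 rose, 8 fell and 1 was not called, with a median of -0.92. Over all 30 genes 12 rose and 12 fell. Every one of the 30 passed the filter of a mean FPKM of at least 0.5. Calls are limma adjusted p under 0.05 on log2(FPKM + 1), which makes changes of weakly expressed genes look smaller. Among all 16750 tested genes 31.0% were higher and 31.2% lower, with a median of -0.00716. The 12 of 30 in each direction stood near that background. The groups did not overlap in 8 genes higher and 10 lower in inflamed tumours, against 24.4% and 24.4% of all tested genes. With each library rescaled to TPM, which moved the median of all genes to -0.28, 9 of the 30 rose and 13 fell, against 22.5% and 41.7% of all genes. The counts then were 6 higher and 2 lower for the 14 cholesterol enzymes and 2 and 8 for the 11 fatty acid enzymes. They were the same for both sets with the median of each chromosome removed.

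**Figure D1:**
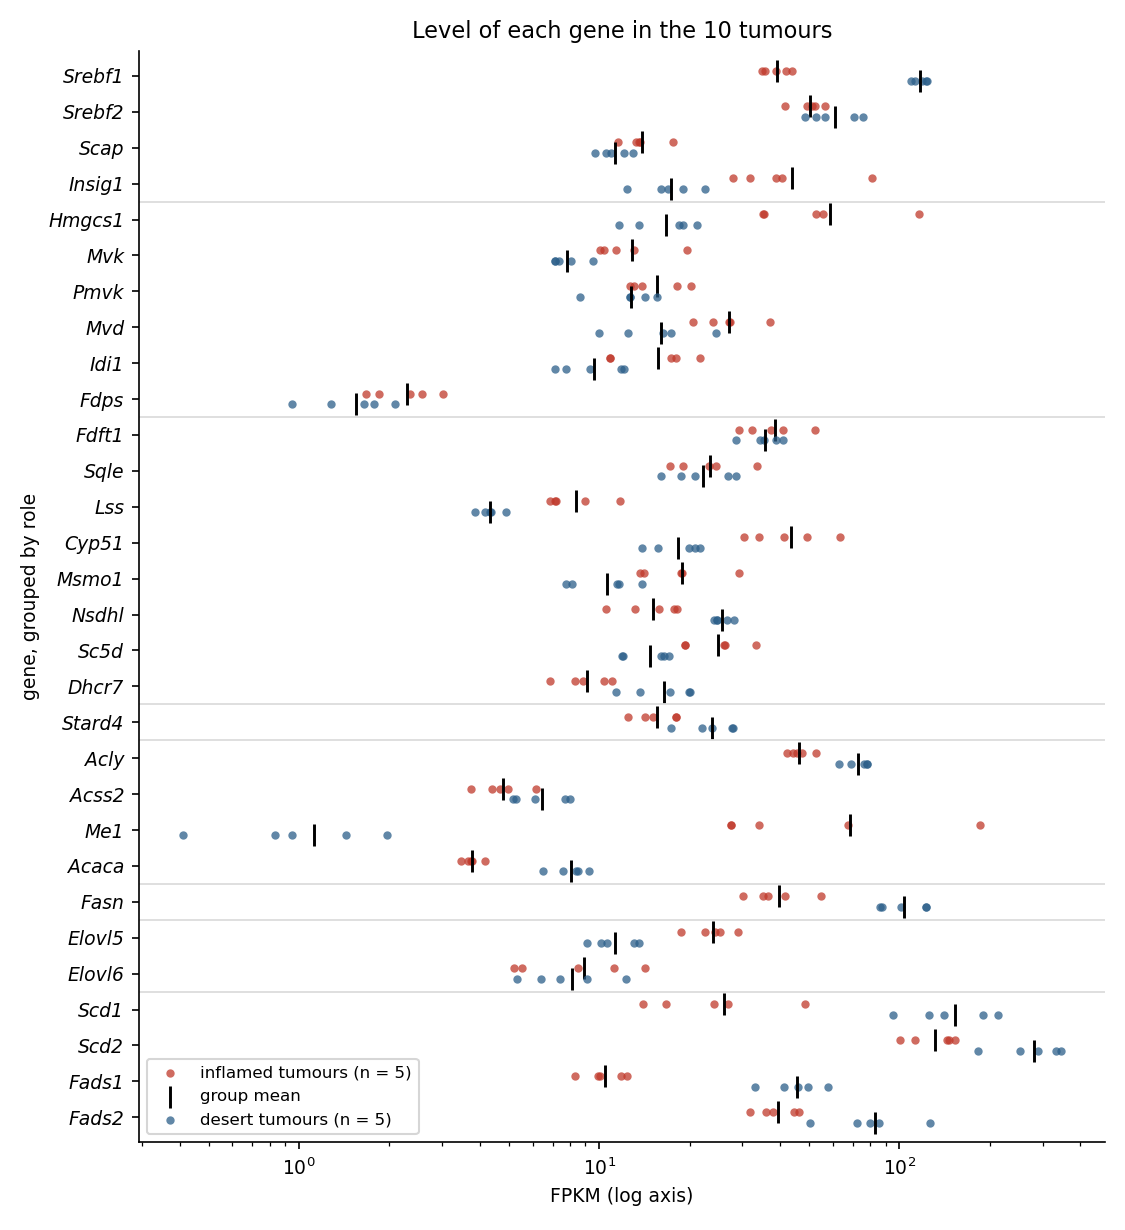
FPKM (log axis) of each of the 30 genes in 5 inflamed and 5 desert tumours, with points for tumours and bars for group means, and lines between the roles. Me1 stands furthest apart, at 27.6 FPKM or more in inflamed and 1.97 FPKM or less in desert tumours, and the 4 desaturases at the bottom are higher in every desert tumour.

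Of the regulators, Srebf1 was lower and Insig1 higher in inflamed tumours. Srebf1 (ENSMUSG00000020538, chromosome 11, 60089915 to 60113407 in the deposited table), which encodes SREBP-1, was at 43.8, 41.9, 34.8, 38.9 and 35.7 FPKM across inflamed tumours 1 to 5, against 124, 112, 122, 109.6 and 119 FPKM across desert tumours 1 to 5. The groups were far apart, and the desert tumours differed among themselves by no more than 1.13 times, the smallest spread of any of the 30 genes there. It fell in inflamed tumours, with means 3.01 times as high in desert tumours (limma adjusted p = 1.12e-07 for a log2 difference of -1.57, SE 0.088). Srebf2 (ENSMUSG00000022463, chromosome 15, 82031382 to 82089580), which encodes SREBP-2, was at 51.3, 52.4, 41.7, 56.6 and 49.4 FPKM across inflamed tumours 1 to 5, against 75.8, 70.6, 48.7, 56.6 and 52.6 FPKM across desert tumours 1 to 5. These ranges overlapped and the difference was not called (limma adjusted p = 0.123 for a log2 difference of -0.26, SE 0.14). It was called lower after rescaling to TPM (-0.56, adjusted p = 0.00177), with quantile normalization and with voom, with adjusted p from 0.00177 to 0.427 as the fit was varied. Its sign turned after subtracting chromosome medians (0.11, adjusted p = 0.427).

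Insig1 (ENSMUSG00000045294, chromosome 5, 28276361 to 28283660), a sterol sensor that retains Scap and is itself a known SREBP target, was at 31.7, 39, 27.8, 81.1 and 40.5 FPKM across inflamed tumours 1 to 5, against 22.4, 19, 12.4, 16 and 17 FPKM across desert tumours 1 to 5. Every inflamed tumour was above every desert tumour, with inflamed tumour 4 the highest by a wide margin (limma adjusted p = 0.00188 for a log2 difference of 1.21, SE 0.26). Without inflamed tumour 4 the difference was 0.97 (limma adjusted p = 6.98e-04). Scap, the escort of SREBP to the Golgi, was at 13.9 ± 2.23 FPKM on average in inflamed tumours, against 11.3 ± 1.29 FPKM in desert ones (SD, n = 5 each). Its rise was small and barely called (limma adjusted p = 0.0494 for a log2 difference of 0.28, SE 0.11). The Scap call was lost in 15 of 20 alternatives. Among them were TPM (0.0020, adjusted p = 0.988) and removal of chromosome medians (0.056, adjusted p = 0.698), with adjusted p from 0.0258 to 0.988 as the fit was varied. It was also lost without any single library other than inflamed tumour 2 or desert tumour 5.

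Genes of the mevalonate arm were higher in inflamed tumours where they were called. Of 6, Hmgcs1, Mvk, Mvd and Idi1 rose, 0 fell, and Pmvk and Fdps were not called, against 31.0% higher and 31.2% lower among all tested genes. With TPM, and likewise with chromosome medians removed, 2 of 6 rose, against 22.5% and 30.7% of all genes. Hmgcs1 (ENSMUSG00000093930, chromosome 13, 120151915 to 120169796), the synthase that makes HMG-CoA in the cytosol, was at 35, 52.6, 35.5, 116 and 55.5 FPKM across inflamed tumours 1 to 5, against 21.1, 19, 11.7, 18.4 and 13.5 FPKM across desert tumours 1 to 5. The lowest inflamed tumour was above the highest desert tumour, and inflamed tumour 4 again stood highest. Its mean was 3.52 times as high in inflamed tumours (limma adjusted p = 7.05e-04 for a log2 difference of 1.64, SE 0.30), and without inflamed tumour 4 the log2 difference was 1.36. Mvk, the kinase of mevalonate, was at 10.4, 11.3, 10.03, 19.6 and 13.1 FPKM across inflamed tumours 1 to 5, against 7.14, 8.03, 7.15, 7.37 and 9.52 FPKM across desert tumours 1 to 5 and did not overlap between the groups (limma adjusted p = 0.00662 for a log2 difference of 0.62, SE 0.16). On chromosome 5, where the median of all tested genes was 0.35, the Mvk call was lost once chromosome medians were removed (0.24, adjusted p = 0.231, with adjusted p from 0.00367 to 0.231 as the fit was varied).

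Mvd, which decarboxylates mevalonate diphosphate, was at 23.9, 27.2, 20.6, 37 and 27 FPKM across inflamed tumours 1 to 5, against 17.3, 16.4, 9.96, 24.5 and 12.5 FPKM across desert tumours 1 to 5. Desert tumour 4 lay among the inflamed values (limma adjusted p = 0.0116 for a log2 difference of 0.75, SE 0.22), and with TPM the call was lost (0.48, adjusted p = 0.058, with adjusted p from 0.00141 to 0.058 as the fit was varied). Idi1, the isomerase of isopentenyl diphosphate, was at 15.7 ± 4.74 FPKM on average in inflamed tumours, against 9.64 ± 2.29 FPKM in desert ones (SD, n = 5 each), with overlapping groups (limma adjusted p = 0.0221 for a log2 difference of 0.63, SE 0.21). The Idi1 call was lost with TPM (0.38) and with chromosome medians removed (0.39). It was also lost without inflamed tumour 2, inflamed tumour 4, desert tumour 3 or desert tumour 5 (adjusted p = 0.052, 0.0502, 0.0551 and 0.053, with adjusted p from 0.0111 to 0.101 as the fit was varied). Pmvk, the next kinase, was at 15.6 ± 3.38 FPKM on average in inflamed tumours, against 12.7 ± 2.59 FPKM in desert ones (SD, n = 5 each; limma adjusted p = 0.182), a difference of 0.27 that was -0.0092 with TPM. Fdps, farnesyl diphosphate synthase, was the lowest of the enzymes in inflamed tumours, at 1.85, 2.57, 1.67, 3.03 and 2.34 FPKM across inflamed tumours 1 to 5, against 2.09, 1.78, 0.945, 1.65 and 1.28 FPKM across desert tumours 1 to 5. This was not called (limma adjusted p = 0.0588 for a log2 difference of 0.37, SE 0.16), although it passed without inflamed tumour 3 (adjusted p = 0.0371) or desert tumour 1 (adjusted p = 0.0321), with adjusted p from 0.0321 to 0.298 as the fit was varied. Of its 50-base words, 11.7% stood also in transcripts of other genes in GENCODE M21, and for Idi1, which has the copy Idi1-ps1, 30.5% did. A gene that overlaps Fdps in the table reached a mean of 5.73 FPKM. For Hmgcs1 and Scap the shares were 13.6% and 13.1%. The sources used here do not say how such reads were counted, and the levels of Fdps and Idi1 are uncertain.

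In the squalene and sterol arm 4 of 8 enzymes rose in inflamed tumours, 2 fell and 2 were not called, against 31.0% higher and 31.2% lower among all tested genes, so the share that fell was near the background. Cyp51 (ENSMUSG00000001467, chromosome 5, 4131145 to 4154746), which removes a methyl group from lanosterol, was at 30.3, 41.2, 34.2, 63.4 and 49.1 FPKM across inflamed tumours 1 to 5, against 20.8, 21.6, 13.8, 19.9 and 15.7 FPKM across desert tumours 1 to 5. All inflamed tumours lay above all desert tumours (limma adjusted p = 3.78e-04 for a log2 difference of 1.18, SE 0.20). Lss, which closes the ring to lanosterol, was at 7.11, 8.98, 6.86, 11.7 and 7.17 FPKM across inflamed tumours 1 to 5, against 4.91, 4.16, 3.87, 4.38 and 4.32 FPKM across desert tumours 1 to 5, again without overlap (limma adjusted p = 3.64e-04 for a log2 difference of 0.79, SE 0.13). Sc5d, a late desaturase of the sterol ring, was at 24.9 ± 5.87 FPKM on average in inflamed tumours, against 14.7 ± 2.54 FPKM in desert ones (SD, n = 5 each). Sc5d differed by 0.71 on the log2 scale (SE 0.16, limma adjusted p = 0.00314). Msmo1, a sterol methyl oxidase, was at 18.9 ± 6.27 FPKM on average in inflamed tumours, against 10.6 ± 2.59 FPKM in desert ones (SD, n = 5 each; limma adjusted p = 0.00907 for a log2 difference of 0.76, SE 0.21), and desert tumour 4 lay just above inflamed tumour 1.

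Nsdhl and Dhcr7 went the other way. Nsdhl (ENSMUSG00000031349, chromosome X, 71962163 to 72002120), a dehydrogenase that takes part in removing the methyl groups after Cyp51, was at 13.1, 15.8, 10.5, 17.7 and 18.2 FPKM across inflamed tumours 1 to 5, against 28.2, 26.6, 24.1, 24.7 and 24.7 FPKM across desert tumours 1 to 5. It fell in inflamed tumours without overlap (limma adjusted p = 5.92e-04 for a log2 difference of -0.75, SE 0.14). Dhcr7 (ENSMUSG00000058454, chromosome 7, 143376882 to 143402147), the reductase that makes cholesterol from its last precursor, was at 8.34, 10.3, 6.87, 11.1 and 8.86 FPKM across inflamed tumours 1 to 5, against 20.1, 19.9, 13.6, 11.4 and 17.2 FPKM across desert tumours 1 to 5. The highest inflamed and the lowest desert tumour nearly met, and the fall was called (limma adjusted p = 0.00206 for a log2 difference of -0.78, SE 0.17, and -0.48 with chromosome medians removed). Fdft1 and Sqle, which make squalene and its epoxide, were not called. Fdft1 was at 38.5 ± 9.09 FPKM on average in inflamed tumours, against 35.6 ± 4.68 FPKM in desert ones (SD, n = 5 each; limma adjusted p = 0.632 for a log2 difference of 0.091, SE 0.16). Sqle, a rate-limiting enzyme of the sterol branch, was at 23.5 ± 6.32 FPKM on average in inflamed tumours, against 22.2 ± 5.3 FPKM in desert ones (SD, n = 5 each). Sqle differed by 0.073 on the log2 scale (SE 0.20, limma adjusted p = 0.762). Both signs turned with TPM (-0.21 and -0.22) and with quantile normalization (-0.029 and -0.00201). They also turned without inflamed tumour 4 (-0.027 and -0.059), and for Sqle also without desert tumour 3 (-0.030). In the table Fdft1 overlaps the cathepsin gene Ctsb on the other strand, whose mean level was 138 FPKM. Whether counting used the strand was not stated, so reads of the overlap cannot be told apart. Stard4 (ENSMUSG00000024378, chromosome 18, 33332408 to 33346915), a carrier of sterols in the cytosol, was at 14.2, 18.1, 12.4, 18 and 15.1 FPKM across inflamed tumours 1 to 5, against 23.7, 27.7, 17.3, 27.9 and 22 FPKM across desert tumours 1 to 5. It fell in inflamed tumours (limma adjusted p = 0.0052 for a log2 difference of -0.57, SE 0.14), with inflamed tumours 2 and 4 just above desert tumour 3, and the call was lost with the chromosome 18 median removed (-0.20, adjusted p = 0.232, with adjusted p from 2.37e-04 to 0.232 as the fit was varied).

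The other cholesterol enzymes, a list chosen beside the 30 genes, went both ways, near the background. Of 8, 3 rose in inflamed tumours, 2 fell and 3 were not called, with a median log2 difference of 0.19, against 31.0% higher and 31.2% lower among all tested genes. Lbr, a sterol reductase that is also a lamin receptor of the nuclear envelope, was at 17 ± 1.66 FPKM on average in inflamed tumours, against 30.3 ± 5.13 FPKM in desert ones (SD, n = 5 each; limma adjusted p = 1.64e-04 for a log2 difference of -0.79, SE 0.12).

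The genes from citrate cleavage to fatty acid synthase (Acly, Acaca and Fasn) were lower in inflamed tumours. Fasn (ENSMUSG00000025153, chromosome 11, 120696672 to 120715373), which builds palmitate, was at 35.3, 41.6, 30.1, 54.7 and 36.5 FPKM across inflamed tumours 1 to 5, against 86, 101, 122, 87.7 and 123 FPKM across desert tumours 1 to 5. The highest inflamed tumour lay well below the lowest desert tumour, and the mean was 2.62 times as high in desert tumours (limma adjusted p = 3.20e-05 for a log2 difference of -1.38, SE 0.17). Acly, which cleaves citrate to acetyl-CoA, was at 47.3, 52.9, 44.3, 42.3 and 45.5 FPKM across inflamed tumours 1 to 5, against 76.4, 78, 63, 69.1 and 78.1 FPKM across desert tumours 1 to 5, without overlap (limma adjusted p = 1.36e-04 for a log2 difference of -0.64, SE 0.093, and -0.42 with chromosome medians removed). Acaca, the carboxylase that makes malonyl-CoA, was at 3.77, 4.15, 3.76, 3.65 and 3.46 FPKM across inflamed tumours 1 to 5, against 6.48, 8.53, 8.38, 7.55 and 9.27 FPKM across desert tumours 1 to 5. Its groups were apart, with inflamed tumours within 1.2 times of each other (limma adjusted p = 1.03e-05 for a log2 difference of -0.92, SE 0.095). Of its 50-base words, 52.6% were shared with the predicted gene Gm5182, so its level is uncertain. Acss2, which makes acetyl-CoA from acetate, was at 4.79 ± 0.89 FPKM on average in inflamed tumours, against 6.45 ± 1.32 FPKM in desert ones (SD, n = 5 each; limma adjusted p = 0.0459 for a log2 difference of -0.36, SE 0.14). The Acss2 call was lost in 11 of 20 alternatives. These included the removal of inflamed tumour 1, 2, 3 or 5 or of desert tumour 1, 3 or 5 (adjusted p = 0.107, 0.0898, 0.0651, 0.0769, 0.0632, 0.108 and 0.108, with adjusted p from 0.00153 to 0.108 as the fit was varied).

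Me1 ran against them. Me1 (ENSMUSG00000032418, chromosome 9, 86463424 to 86578006), the cytosolic malic enzyme that yields NADPH for lipid synthesis, was at 27.6, 34, 27.6, 186 and 67.5 FPKM across inflamed tumours 1 to 5, against 0.83, 1.44, 1.97, 0.41 and 0.945 FPKM across desert tumours 1 to 5. Even the lowest inflamed tumour was more than 10 times the highest desert tumour. The ratio of means was 61.3, or 35 without inflamed tumour 4, and the difference ranked 121 of 16750 tested genes from the top (limma adjusted p = 1.05e-05 for a log2 difference of 4.65, SE 0.48). Desert libraries held as few as 30 reads of Me1, so its low levels are less precise than its high ones. Without inflamed tumour 4, its highest library, the difference was 4.19 (limma adjusted p = 1.48e-06). Other genes, foremost Gm7049, shared 32.8% of its 50-base words. Me1 is also high in fat cells, and 8 adipocyte markers summed to 1.25 to 31 FPKM in inflamed and 0.294 to 12.3 FPKM in desert tumours. Of the 3 tested ones, Cidec was called higher and 0 were lower. The sums were 1.25, 1.37, 16.8, 31 and 4.97 FPKM in inflamed tumours 1 to 5. Both the sum and Me1 were highest in inflamed tumour 4. The next highest sum was in inflamed tumour 3, where Me1 was at 27.6 FPKM. The next highest Me1 was in inflamed tumour 5, at 67.5 FPKM. In desert tumours 1 to 5 the sums were 0.294, 2.54, 8.96, 0.489 and 12.3 FPKM, highest in desert tumour 5, whereas Me1 was highest in desert tumour 3. Adipoq, a defining marker, was listed at 0 in inflamed tumours 1 and 2. The part of fat cells in the levels of Me1 was not tested.

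**Figure D2:**
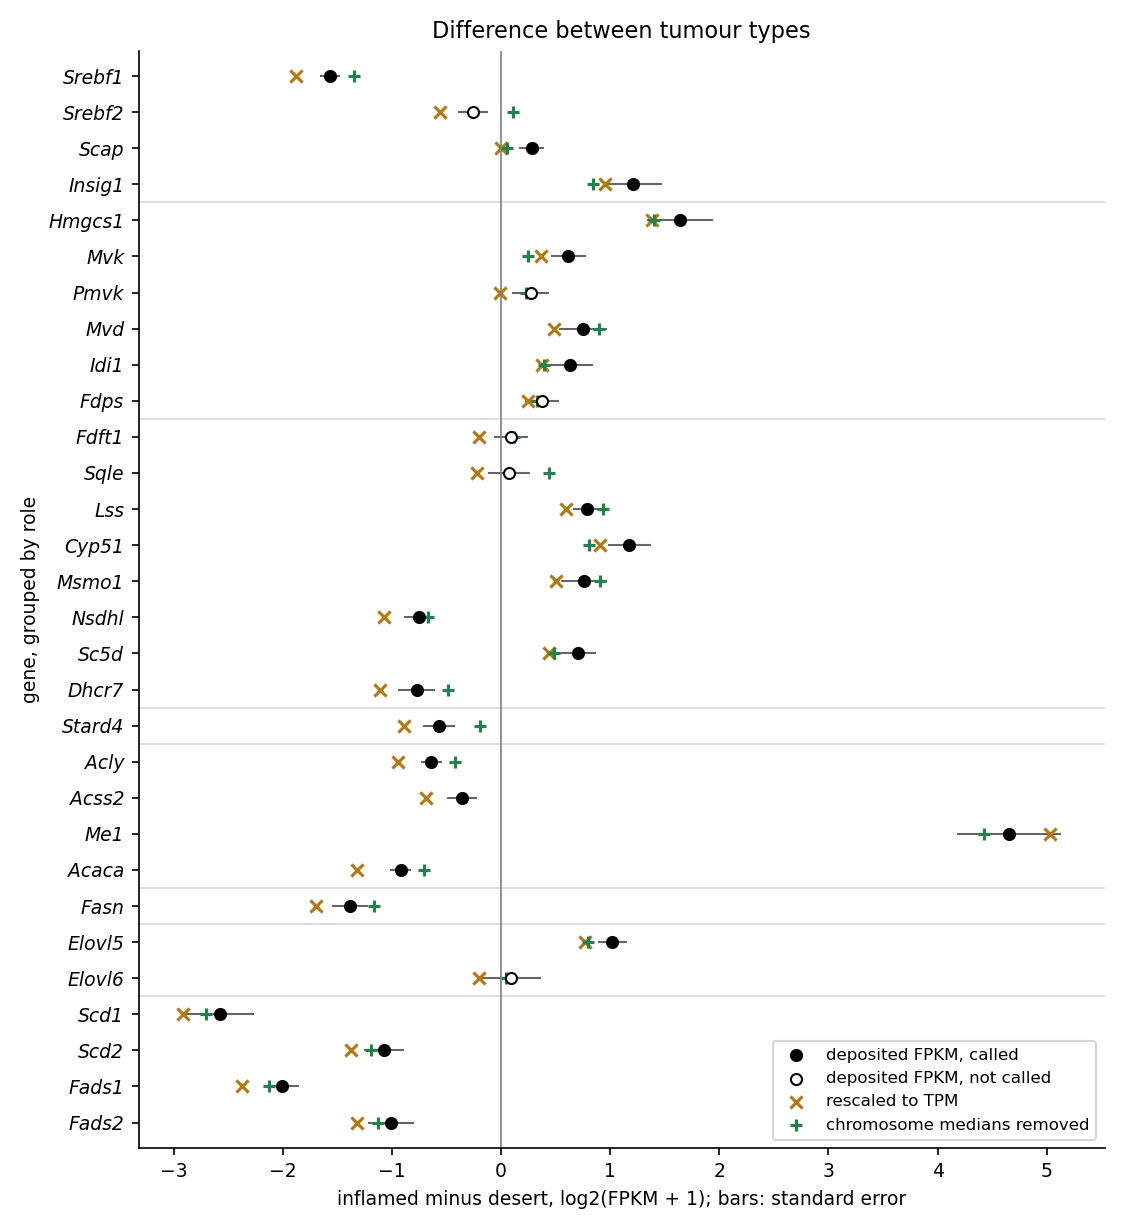
Log2 difference (inflamed minus desert, log2(FPKM + 1)) of each gene with its standard error, filled where called by limma and open where not, beside the values after rescaling to TPM (crosses) and with chromosome medians removed (plus signs). The 4 desaturases lie between -2.58 and -1.01, whereas Hmgcs1, Insig1 and Cyp51 lie above 1.

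All 4 desaturases were lower in inflamed tumours, with no overlap of the groups. Of all tested genes 31.2% were called lower, and 24.4% were lower without overlap. Scd1 (ENSMUSG00000037071, chromosome 19, 44382894 to 44396318), which puts a double bond into stearoyl-CoA, was at 16.8, 24.1, 14, 48.4 and 26.8 FPKM across inflamed tumours 1 to 5, against 212, 189.6, 126, 141 and 95.3 FPKM across desert tumours 1 to 5. Its mean was 5.87 times as high in desert tumours, and its difference ranked 184 of 16750 from the bottom (limma adjusted p = 4.05e-05 for a log2 difference of -2.58, SE 0.32). Inflamed tumour 4, the highest of its group, was still below the lowest desert tumour. Scd2 (ENSMUSG00000025203, chromosome 19, 44282113 to 44295303), its close relative, had the highest mean per length of the 30 genes in both groups, at 113, 146, 101, 153 and 144 FPKM across inflamed tumours 1 to 5, against 345, 331, 253, 290.0 and 183 FPKM across desert tumours 1 to 5 (limma adjusted p = 4.66e-04 for a log2 difference of -1.07, SE 0.19). Desert tumour 5 was the lowest desert tumour for both genes. Fads1 (ENSMUSG00000010663, chromosome 19, 10160252 to 10174241), which takes the last desaturation step to arachidonate, was at 10.1, 9.93, 12.4, 8.3 and 11.8 FPKM across inflamed tumours 1 to 5, against 49.6, 46, 41.2, 58 and 33 FPKM across desert tumours 1 to 5 (limma adjusted p = 9.81e-07 for a log2 difference of -2.01, SE 0.15). Fads2 (ENSMUSG00000024665, chromosome 19, 10040129 to 10079110), which takes the opening step of the same path, was at 37.9, 44.6, 35.9, 31.9 and 46.2 FPKM across inflamed tumours 1 to 5, against 79.6, 72.1, 85.7, 127 and 50.4 FPKM across desert tumours 1 to 5 (limma adjusted p = 0.00156 for a log2 difference of -1.01, SE 0.21). Its groups nearly met, at 46.2 FPKM in inflamed tumour 5 and 50.4 FPKM in desert tumour 5.

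All 4 desaturase genes lie on chromosome 19 in the table, Scd1 and Scd2 87590 bases apart and Fads1 and Fads2 81141 bases apart, with 34208652 bases between Fads1 and Scd1. Reads of the Scd family could be split between copies, although only 4.66% of the 50-base words of Scd1 and 4.01% of those of Scd2 stood in other genes.

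Of the elongases, Elovl5 rose and Elovl6 was not called. Elovl5 (ENSMUSG00000032349, chromosome 9, 77824646 to 77891801), which lengthens polyunsaturated fatty acids between the steps of Fads2 and Fads1, was at 25.2, 24.3, 22.5, 18.8 and 28.9 FPKM across inflamed tumours 1 to 5, against 13.1, 13.6, 10.2, 10.6 and 9.09 FPKM across desert tumours 1 to 5. It rose in inflamed tumours, every one of which was above every desert tumour (limma adjusted p = 6.19e-05 for a log2 difference of 1.02, SE 0.13), while both desaturases of its path fell. Elovl6, which lengthens palmitate to stearate, the substrate of Scd1, was at 5.55, 8.48, 5.2, 14.2 and 11.2 FPKM across inflamed tumours 1 to 5, against 7.39, 12.3, 6.4, 9.1 and 5.34 FPKM across desert tumours 1 to 5. Its ranges overlapped and the difference was not called (limma adjusted p = 0.795 for a log2 difference of 0.089, SE 0.27), with a sign that turned with TPM (-0.20) and on dropping inflamed tumour 4, inflamed tumour 5 or desert tumour 5 (-0.086, -0.00836 and -0.030).

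Relatives within the pathway were then set side by side in each tumour, as the log2 ratio of their FPKM with 1 added to both, with an exact two-sided permutation test. The smallest p these 5 against 5 tumours allow is 0.00794, and p was adjusted over all 8 pairs tested by Benjamini-Hochberg, of which 7 are given. Scd1 made up 12.9, 14.2, 12.2, 24 and 15.7% of the FPKM of Scd1 and Scd2 in inflamed tumours 1 to 5 and 38.1, 36.4, 33.2, 32.7 and 34.2% in desert tumours 1 to 5. Scd1 took a smaller share in every inflamed than in any desert tumour (difference of log2 ratios -1.51, exact permutation p = 0.00794, adjusted p = 0.0127). Srebf1 made up 46.1, 44.5, 45.5, 40.7 and 42% of Srebf1 and Srebf2 in inflamed tumours and 62, 61.4, 71.5, 65.9 and 69.3% in desert tumours. Srebf2 was the more abundant per length in every inflamed tumour and Srebf1 in every desert tumour (difference of log2 ratios -1.31, exact permutation p = 0.00794, adjusted p = 0.0127). Fads1 made up 21, 18.2, 25.6, 20.6 and 20.4% of Fads1 and Fads2 in inflamed and 38.4, 38.9, 32.5, 31.4 and 39.6% in desert tumours (difference of log2 ratios -0.998, exact permutation p = 0.00794, adjusted p = 0.0127).

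Acacb, a mitochondrial relative of Acaca that restrains fatty acid oxidation, was at 3.33 ± 2.55 FPKM on average in inflamed tumours, against 0.997 ± 0.519 FPKM in desert ones (SD, n = 5 each). Acaca held 31.8 to 71% of the sum in inflamed and 82.7 to 93.2% in desert tumours (difference of log2 ratios -1.92, exact permutation p = 0.00794, adjusted p = 0.0127), the lowest share being that of inflamed tumour 4. Insig2, the relative of Insig1, was at 17.2 ± 4.91 FPKM on average in inflamed tumours, against 9.91 ± 1.05 FPKM in desert ones (SD, n = 5 each). Insig2 differed by 0.70 on the log2 scale (SE 0.16, limma adjusted p = 0.0034). Insig1 held 67.1 to 76.9% in inflamed tumours, against 57.9 to 67.3% in desert tumours (difference of log2 ratios 0.51, exact permutation p = 0.00794, adjusted p = 0.0127). This call was lost without any 1 of desert tumours 2 to 5 (adjusted p = 0.0508 in each). Elovl6 held 18.1 to 43.1% beside Elovl5 in inflamed and 36.1 to 47.4% in desert tumours (difference of log2 ratios -0.93, exact permutation p = 0.0317, adjusted p = 0.0423), a call kept without inflamed tumour 4 or desert tumour 1 and lost without any 1 of the other 8 libraries (adjusted p no higher than 0.0741). The pair Acss2 with Acly was not called (difference of log2 ratios 0.28, exact permutation p = 0.19, adjusted p = 0.19).

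**Figure D3:**
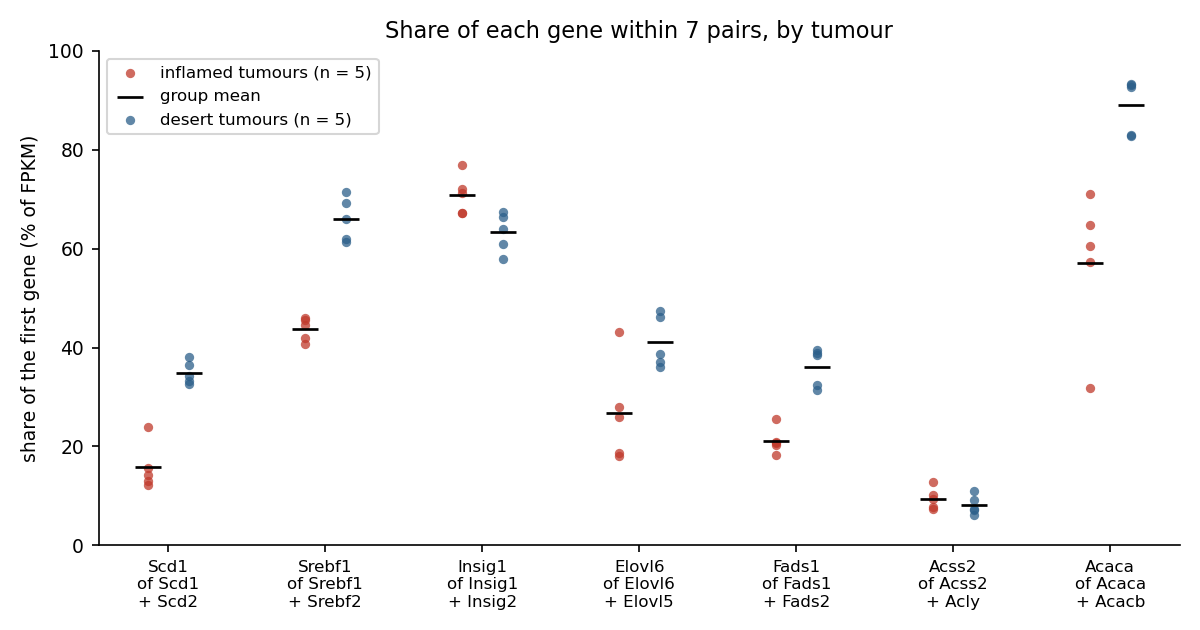
Share of the first gene in the summed FPKM of 7 pairs (%), with a point for each tumour and a bar for the mean of each group (n = 5). The shares of Scd1, Srebf1, Fads1 and Acaca do not overlap between inflamed and desert tumours, whereas those of Acss2 do.

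Within each group, 1 tumour often held the highest and another the lowest levels of the cholesterol enzymes. Inflamed tumour 4 held the highest value of its group in 13 of the 14 enzymes, against 27.2% of all tested genes, and Nsdhl was the exception. Inflamed tumour 3 was lowest in 10 of 14, against 21% of all genes, and inflamed tumour 1 in the other 4. Relative to the mean of its group, the median enzyme stood at 0.808, 1.02, 0.758, 1.37 and 1.02 in inflamed tumours 1 to 5. Among the enzymes Hmgcs1 spread most, 3.31 times from its lowest to its highest inflamed tumour. In desert tumours the same medians were 1.14, 1.13, 0.761, 1.004 and 0.849. Desert tumour 3 was lowest in 10 of 14, against 16.6% of all genes, and desert tumour 1 was highest in 8 of 14, against 27.8%. These counts describe the tumours, since genes of 1 pathway are not independent.

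The summed FPKM over all genes was also highest in inflamed tumour 4, at 356133 against 280795 to 312690.3 in the other inflamed tumours. Desert tumours summed to 236901 to 269525, all below every inflamed tumour. After rescaling to TPM inflamed tumour 4 was highest in 9 of 14 enzymes, against 11.8% of all genes. Inflamed tumour 3 was then lowest in 8, against 9.87%. Desert tumour 3 was then lowest in 9 of 14, against 11.1%, while the place of highest passed from desert tumour 1 (1 of 14) to desert tumour 2 (9 of 14). Inflamed tumour 4 also held the highest summed gastric markers, at 44295 FPKM, and the lowest summed leukocyte and fibroblast markers of its group, at 320.4 and 100.2 FPKM. The part of these in the enzyme levels was not tested. The 11 genes of fatty acid synthesis did not share 1 order. On the deposited FPKM, inflamed tumour 4 was highest in 6 of them and lowest in 4, namely Acly, Elovl5, Fads1 and Fads2. Of all tested genes it was highest in 27.2% and lowest in 27.7%. Desert tumour 5 was lowest in 6, namely all 4 desaturases and both elongases, and highest in 4, namely Acly, Acss2, Acaca and Fasn. Of all tested genes it was lowest in 17.8% and highest in 20.1%.

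**Figure D4:**
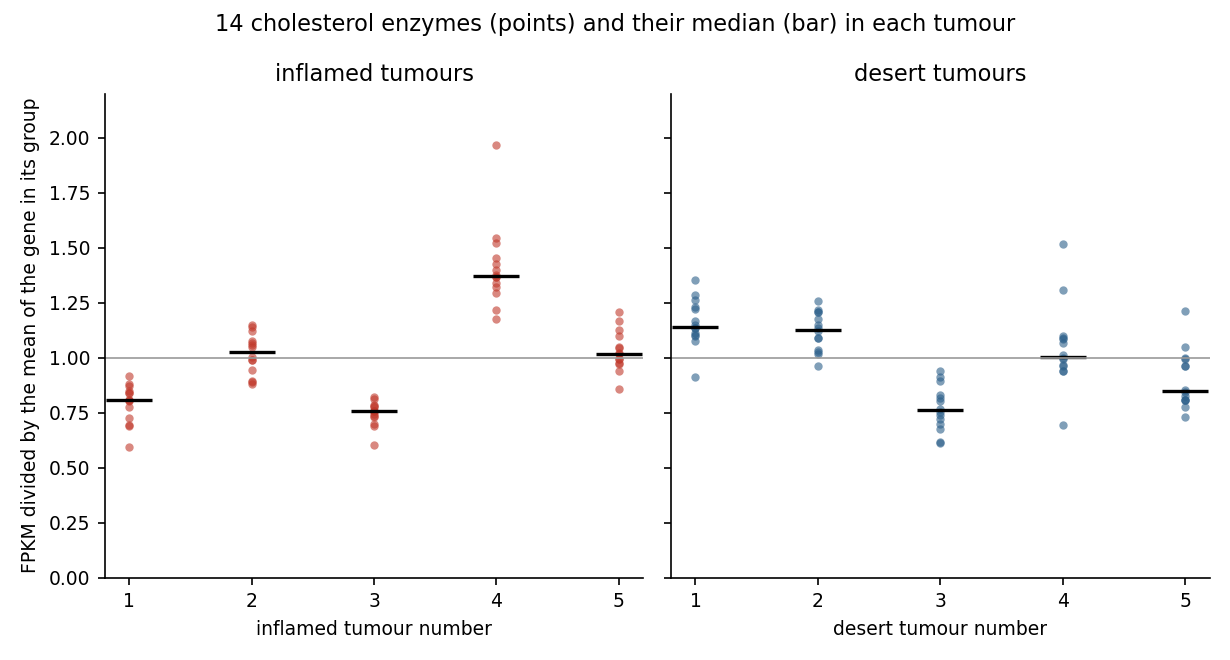
FPKM of each of 14 cholesterol enzymes divided by its mean in the same group (vertical axis, no unit), by tumour number, with bars at the median of the 14. Inflamed tumour 4 lies at a median of 1.37 and above 1 for every enzyme. Inflamed tumours 1 and 3 and desert tumour 3 lie below 1 for every enzyme.

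Several chromosomes held called members of 1 direction, and whole chromosomes differed too. Across 20 chromosomes with at least 50 tested genes, the median log2 difference ran from -0.37 to 0.35. On chromosome 11 (median -0.23, 21.1% of genes higher and 42% lower) Srebf1, Acly, Acaca and Fasn all fell. On chromosome 9 (median 0.22, 42.6% of genes higher and 20.3% lower) Me1, Elovl5, Sc5d and Scap all rose, and on chromosome 5 (median 0.35, 53.5% of genes higher and 10.8% lower) Insig1, Cyp51 and Mvk rose. On chromosome 19 the median was on the other side (0.11, 36.6% of genes higher and 20.9% lower) from the fall of Scd1, Scd2, Fads1 and Fads2. On chromosome 8 Msmo1 and Mvd rose against a median of -0.14, as Lss did on chromosome 10 (median -0.13). On chromosome 3 (Elovl6, Fdps and Pmvk), chromosome 14 (Fdft1) and chromosome 15 (Sqle and Srebf2) 0 members were called. With the median of each chromosome removed in every library, Srebf1 was at -1.35, Fasn at -1.17, Acaca at -0.71, Insig1 at 0.84, Cyp51 at 0.80 and Scd1 at -2.7, all still called by limma. By that fit 9 of the 30 genes rose and 11 fell, against 30.7% and 29.9% of all genes. The calls of Scap, Mvk, Idi1 and Stard4 were lost. This way of fitting was chosen after the data had been examined.

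**Figure D5:**
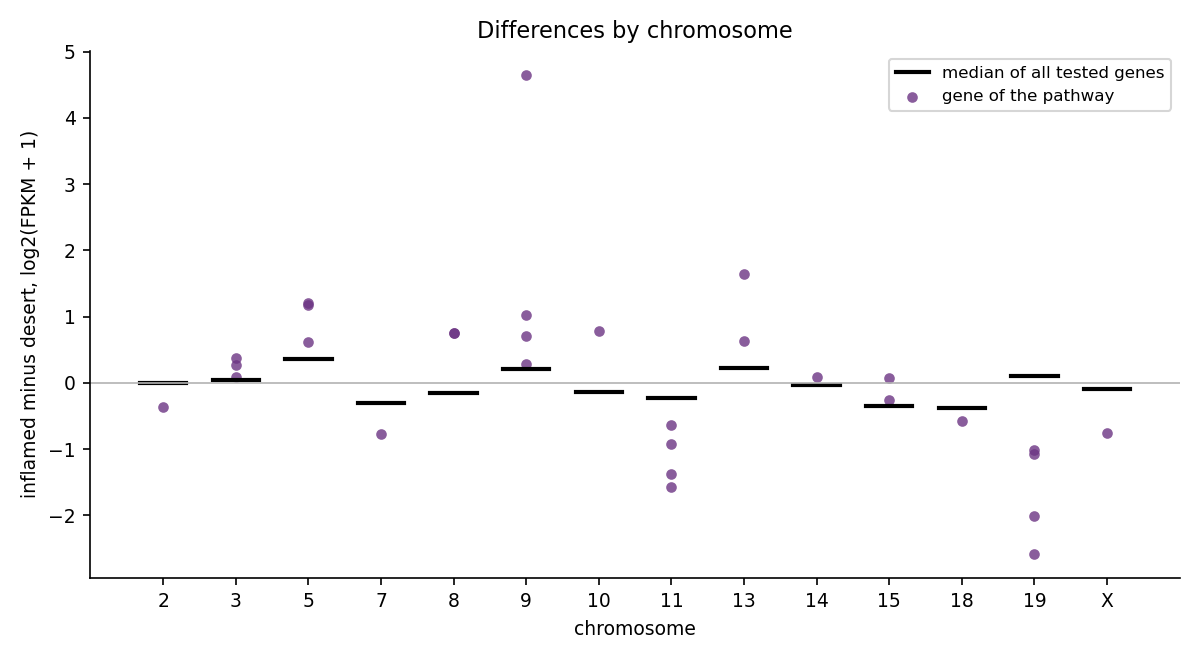
Log2 difference (inflamed minus desert) of the 30 genes (points) by chromosome, with bars at the median of all tested genes of that chromosome. The 4 points of chromosome 19 lie below a bar at 0.11, and the 4 of chromosome 11 below a bar at -0.23.

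Genes around the synthesis pathways were read from further lists. Their counts stand against 31.0% of all tested genes higher and 31.2% lower, or 22.5% and 41.7% with TPM. Of 17 genes of sterol sensing and of SREBP processing and degradation, 7 rose in inflamed tumours, 4 fell and 6 were not called, with a median log2 difference of 0.25 (3 higher and 6 lower with TPM). Tmem97, a sterol-regulated membrane protein that binds Npc1, was at 24.4 ± 3.05 FPKM on average in inflamed tumours, against 46.7 ± 9.22 FPKM in desert ones (SD, n = 5 each). Tmem97 differed by -0.89 on the log2 scale (SE 0.14, limma adjusted p = 2.24e-04). Mlxipl, which encodes the glucose-sensing factor ChREBP, was at 1.04 ± 0.287 FPKM on average in inflamed tumours, against 2.77 ± 0.647 FPKM in desert ones (SD, n = 5 each). Mlxipl differed by -0.88 on the log2 scale (SE 0.15, limma adjusted p = 4.80e-04). Mid1ip1, which promotes the assembly of acetyl-CoA carboxylase, was at 47.2 ± 20.6 FPKM on average in inflamed tumours, against 39.9 ± 10.8 FPKM in desert ones (SD, n = 5 each; limma adjusted p = 0.542).

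Of 18 genes of cholesterol uptake, lysosomal export and esterification, 9 rose in inflamed tumours, 5 fell and 4 were not called, with a median log2 difference of 0.24 (7 higher and 7 lower with TPM). Npc1 (ENSMUSG00000024413, chromosome 18, 12322749 to 12369457), which carries cholesterol out of lysosomes, was at 6.49, 5.86, 5.11, 4.97 and 5.59 FPKM across inflamed tumours 1 to 5, against 29.7, 30.6, 31.8, 40.1 and 28.2 FPKM across desert tumours 1 to 5. The lowest desert tumour was more than 4 times the highest inflamed tumour (limma adjusted p = 2.37e-08 for a log2 difference of -2.32, SE 0.11). With chromosome medians removed the difference was -1.95. Gramd1a, which moves cholesterol from the plasma membrane to the endoplasmic reticulum, was at 13.7 ± 1.24 FPKM on average in inflamed tumours, against 45.6 ± 5.05 FPKM in desert ones (SD, n = 5 each). Gramd1a differed by -1.66 on the log2 scale (SE 0.093, limma adjusted p = 1.12e-07). Soat1, which esterifies cholesterol for storage, was at 13.5 ± 3.44 FPKM on average in inflamed tumours, against 2.9 ± 1.25 FPKM in desert ones (SD, n = 5 each). Soat1 differed by 1.92 on the log2 scale (SE 0.23, limma adjusted p = 3.79e-05). Osbp, an oxysterol-binding transfer protein, was at 30.7 ± 1.83 FPKM on average in inflamed tumours, against 24.2 ± 4.08 FPKM in desert ones (SD, n = 5 each; limma adjusted p = 0.0208 for a log2 difference of 0.34, SE 0.11), a call lost with TPM (adjusted p = 0.684) and with chromosome medians removed (adjusted p = 0.0599).

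Of 8 genes of cholesterol efflux and oxysterol formation 6 passed the filter, which a gene high in 1 group passes more easily, and of these 2 rose in inflamed tumours, 4 fell and 0 were not called, with a median log2 difference of -0.99 (2 higher and 4 lower with TPM). Abca1, the pump that loads cholesterol onto apolipoproteins, was at 12.3, 11.8, 8.7, 5.15 and 7.76 FPKM across inflamed tumours 1 to 5, against 17.2, 20.5, 38.8, 29 and 26.6 FPKM across desert tumours 1 to 5. Every desert tumour was above every inflamed tumour (limma adjusted p = 4.67e-04 for a log2 difference of -1.43, SE 0.25). Cyp27a1, which hydroxylates sterols in mitochondria, was at 12.9 ± 2.42 FPKM on average in inflamed tumours, against 27.4 ± 4.14 FPKM in desert ones (SD, n = 5 each; limma adjusted p = 8.34e-05 for a log2 difference of -1.04, SE 0.14). Cyp7b1, another sterol hydroxylase, was at 1.08 ± 0.37 FPKM on average in inflamed tumours, against 5.44 ± 1.52 FPKM in desert ones (SD, n = 5 each; limma adjusted p = 1.84e-05 for a log2 difference of -1.62, SE 0.18, and -2.33 with TPM). Of 22 further genes of fatty acid synthesis, elongation and desaturation 18 passed the filter, and of these 9 rose in inflamed tumours, 7 fell and 2 were not called, with a median log2 difference of 0.36 (8 higher and 7 lower with TPM). Acss1, the mitochondrial relative of Acss2, was at 22.9, 26.6, 28.6, 49.6 and 32.8 FPKM across inflamed tumours 1 to 5, against 0.205, 0.456, 0.527, 0.102 and 0.179 FPKM across desert tumours 1 to 5. Like Me1 it was near 0 in desert tumours (limma adjusted p = 1.15e-08 for a log2 difference of 4.64, SE 0.19). The difference of low levels grows without the added 1 of the log scale, and voom on recovered reads gave 6.89 for Acss1 and 5.62 for Me1. Idh1, another cytosolic source of NADPH, was at 109 ± 16.9 FPKM on average in inflamed tumours, against 18.2 ± 5.41 FPKM in desert ones (SD, n = 5 each). Idh1 differed by 2.54 on the log2 scale (SE 0.18, limma adjusted p = 6.40e-07). Tecr, the last enzyme of each elongation round, was at 52.7 ± 2.81 FPKM on average in inflamed tumours, against 87.5 ± 14.3 FPKM in desert ones (SD, n = 5 each). Tecr differed by -0.71 on the log2 scale (SE 0.11, limma adjusted p = 2.50e-04).

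Leukocyte markers and genes of the cycle moved with the groups too. Marker counts stand against 31.0% of all tested genes higher and 31.2% lower, or 22.5% and 41.7% with TPM. Of 9 leukocyte markers 7 rose in inflamed tumours and 0 fell, with sums of 320.4 to 1606 FPKM in inflamed and 33.4 to 92 FPKM in desert tumours. Of 7 fibroblast markers 2 rose, near the background, and 0 fell, and 1 rose with TPM. Their sums overlapped between inflamed and desert tumours (100.2 to 297 and 62.4 to 133 FPKM). Of 10 proliferation genes 1 rose and 8 fell, with sums of 165 to 229.5 FPKM in inflamed and 228 to 319 FPKM in desert tumours. Hepatocyte markers, another lipogenic cell type, overlapped between the groups in their sum (22.4 to 65.8 and 22.4 to 70.7 FPKM). Of 4 tested ones 0 fell and 2 rose, namely Apoa1 (3.26 to 39.9 FPKM in inflamed, at most 0.211 FPKM in desert tumours) and Apob (1.69 to 6.82, at most 0.034 FPKM). With TPM 2 rose and 1 fell. Serpina1a and Fgb were at no more than 0.0648 FPKM in any tumour. In desert tumours nearly all of the sum therefore lay in the remaining markers, Alb, Ttr and Cyp2e1. The part of these cell types in the differences of the 30 genes was not tested.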

How the data were processed

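RNA of 10 libraries, labelled as 5 inflamed and 5 desert gastric tumours, was sequenced. The authors deposited FPKM per gene in 1 table with its gene length in bases. The genome build named in the submitters' processing notes is mm10. Aligner, counter, annotation and strand setting are not given in the sources used here. Table positions of the 30 genes had the chromosome of GENCODE M21 (GRCm38) in 30 and its start in 0, so they are given as the table holds them. FPKM times length came in whole steps (100% of values within 0.01 of a whole number), which gave the reads per library, a formula the authors did not state. The library total those steps imply was 0.98 to 1.146 times the reads in genes, at 0.98 in inflamed tumour 4. Median-of-ratios factors of the 10 libraries were 0.99 to 1.02, so scaling by them moved the values little. The sources used here do not say whether the deposited values had been scaled between libraries.

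Only genes reaching 0.5 in mean FPKM were tested on log2(FPKM + 1), as no deposited value is a count, with limma 3.58.1 in R 4.3.3 (two-sided, trended and robust, with no covariate), Benjamini-Hochberg over all 16750 genes, threshold 0.05. Differences are inflamed minus desert. The fit was tested on simulated data. Pairs of genes used an exact permutation test. Alternatives were a pseudocount of 0.1, no filter, a mean FPKM of at least 5, TPM, median-of-ratios scaling, quantile normalization, no trend or robust moderation, voom on recovered reads (mean of at least 10), the tumour number as a block, each library left out, and, added after seeing the data, removal of chromosome medians. The members and lists were chosen with earlier results of these data known. Named genes are all 30 members, the genes of the pairs, markers near 0 or moving with a group and, of each list, 2 called genes with the largest differences and 2 with the highest mean. Ctsb, Gm5182, Gm7049 and Idi1-ps1 were named after values were seen, for overlap or shared sequence. Some genes that this rule names, and 1 of the pairs, are not reported here.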

Additional observations from a re-analysis of the deposited data

Results flagged for a closer look

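Over 55 genes, the 30 with their partners in the pairs and the genes named from the lists, 110 groups of 5 tumours were checked for a tumour far from the other 4 in FPKM (gap to the nearest tumour over 0.71 of the group's range), and 9 held one. Chance marks about 1 in 20 groups, and on log2(FPKM + 1) the count was 5. In 7 of them inflamed tumour 4 was far above the next tumour. Insig1 was at 81.1 FPKM there and at 40.5 FPKM in the next tumour. Hmgcs1 was at 116 FPKM there and at 55.5 FPKM in the next tumour. Me1 was at 186 FPKM there and at 67.5 FPKM in the next tumour. Agpat2 was at 61 FPKM there and at 33.1 FPKM in the next tumour. Mid1ip1 was at 82.6 FPKM there and at 48.1 FPKM in the next tumour. Mogat1 was at 39.7 FPKM there and at 5.76 FPKM in the next tumour. Acacb was at 7.84 FPKM there and at 2.79 FPKM in the next tumour. Mlxipl was lowest in inflamed tumour 3, at 0.537 FPKM, with the next tumour at 1.1 FPKM. Mogat1 was also far above the rest in desert tumour 1, at 0.92 FPKM against 0.239 FPKM.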

How the results depend on the processing

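Of the 24 called genes among the 30, 18 kept direction and call in all 20 alternatives, and 25 of the 30 kept their direction in every alternative that tested them, Fdps being in 19 of the 20. Scap, Acss2, Idi1, Mvd, Mvk and Stard4 lost their call in at least 1, and the cause was not tested. Signs turned with TPM in Pmvk (-0.00922), Fdft1 (-0.21), Sqle (-0.22), Elovl6 (-0.20) and Mid1ip1 (-0.10), with quantile normalization in Fdft1 (-0.029) and Sqle (-0.00201), with median-of-ratios scaling in Acaa2 (0.017), and with chromosome medians removed in Srebf2 (0.11), Acaa2 (0.37) and Pnpla2 (0.076). Leaving out each library gave -0.027 to 0.18 for Fdft1, -0.059 to 0.17 for Sqle, -0.086 to 0.24 for Elovl6, -0.11 to 0.068 for Acaa2 and -0.028 to 0.31 for Mid1ip1. It also gave differences of log2 ratios of -1.18 to -0.78 for Elovl6 over Elovl5 and 0.40 to 0.58 for Insig1 over Insig2, whose calls were lost in 8 and 4 of these 10 fits. The cause was not tested. With a mean FPKM of at least 5, 8466 genes were tested and 2784 were higher and 3070 lower, since fewer genes were tested. The split of calls over all genes was 5197 higher and 5221 lower, against 3769 and 6989 with TPM.

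No pairing by tumour number was seen: deviations of same-numbered tumours correlated at -0.0737 to 0.0763 over genes. Those of differently numbered tumours correlated at -0.123 to 0.153. The correlations cannot tell whether same-numbered tumours were handled together. With the tumour number as a block, Scap (adjusted p = 0.0626) and Acss2 (adjusted p = 0.0676) lost their limma calls and the other 22 called genes among the 30 kept theirs, while 4958 of all genes rose and 4967 fell. Depth limits the low genes, among them Me1 in desert tumours and Fdps, whose libraries held 64 to 194 reads.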

Other observations

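On the deposited FPKM, genes that burn fatty acids were mostly higher in inflamed tumours, unlike the 11 fatty acid enzymes among the 30 genes. The further list of synthesis genes went both ways, with 9 higher and 7 lower of 18 tested. Of 24 genes of fatty acid oxidation and ketone body formation 22 passed the filter, and of these 15 rose in inflamed tumours, 2 fell and 5 were not called, with a median log2 difference of 0.52 (10 higher and 4 lower with TPM). Of all tested genes, 31.0% were higher and 31.2% lower, or 22.5% and 41.7% with TPM. Hadhb, a subunit of the mitochondrial trifunctional protein, was at 15 ± 1.87 FPKM on average in inflamed tumours, against 4.91 ± 0.122 FPKM in desert ones (SD, n = 5 each). Hadhb differed by 1.43 on the log2 scale (SE 0.085, limma adjusted p = 1.79e-07). Acadl, a long-chain dehydrogenase, was at 86.8 ± 12.2 FPKM on average in inflamed tumours, against 59.5 ± 6.76 FPKM in desert ones (SD, n = 5 each; limma adjusted p = 0.00282 for a log2 difference of 0.53, SE 0.12), a call lost with TPM (adjusted p = 0.0809). Acaa2, the mitochondrial thiolase, was at 83.3 ± 16.6 FPKM on average in inflamed tumours, against 82.7 ± 5.75 FPKM in desert ones (SD, n = 5 each; limma adjusted p = 0.968), called lower with TPM (adjusted p = 0.0396) and higher with chromosome medians removed (adjusted p = 0.0313).

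Of 21 genes of glycerolipid synthesis and lipid droplets, 7 rose in inflamed tumours, 2 fell and 12 were not called, with a median log2 difference of 0.17 (5 higher and 5 lower with TPM). These counts, and those of fatty acid uptake below, stand against 31.0% of all tested genes higher and 31.2% lower, or 22.5% and 41.7% with TPM. Dgat2, which closes triglyceride synthesis, was at 35.1, 29, 31.2, 77.9 and 43.9 FPKM across inflamed tumours 1 to 5, against 5.18, 3.93, 4.05, 1.4 and 4.43 FPKM across desert tumours 1 to 5 (limma adjusted p = 6.21e-06 for a log2 difference of 3.18, SE 0.30). Mogat1, an acyltransferase that feeds it, was at 0.692, 1.22, 5.76, 39.7 and 5.76 FPKM across inflamed tumours 1 to 5, of which inflamed tumour 4 stood far above the rest, and at 0.92, 0.151, 0.239, 0.135 and 0.0677 FPKM across desert tumours 1 to 5 (limma adjusted p = 0.019 for a log2 difference of 2.21, SE 0.71). Without inflamed tumour 4 the Mogat1 difference was 1.51 (adjusted p = 0.0112). Pnpla2 and Agpat2, which release and build glycerolipids, were not called (limma adjusted p = 0.241 and 0.184), though Pnpla2 was called lower with TPM (adjusted p = 0.00771) and without desert tumour 4 (adjusted p = 0.0366). Of 12 genes of fatty acid uptake and binding 9 passed the filter, and of these 4 rose in inflamed tumours, 2 fell and 3 were not called, with a median log2 difference of 0.76 (3 higher and 2 lower with TPM). With 1 library left out the number higher ran from 2 to 6, and it was 2 without desert tumour 5, inflamed tumour 3 or inflamed tumour 4. Fabp5, an epidermal-type fatty acid binding protein, was at 34.9 ± 23.6 FPKM on average in inflamed tumours, against 3.39 ± 1.1 FPKM in desert ones, and the transporter gene Slc27a1 at 13.6 ± 1.47 FPKM on average in inflamed tumours, against 49.3 ± 8.76 FPKM in desert ones (SD, n = 5 each; limma adjusted p = 8.74e-05 and 5.37e-07).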
